A study of Mus musculus with 20 samples.

Results

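Moxd1, Serpinb5, Enpp2, Capn3, Fam19a3 and Crhbp are 6 genes, out of 23992 gene symbols measured, that were picked by name because they are not usually linked to T cells and their levels differed strongly between T cells given the native cytokine murine IL-21 (mIL-21) and cells given its de novo designed mimic 21h10. The differences between the 2 cytokines at the same dose are therefore the values that chose the genes and are given as descriptions only. The tests cover 2 other contrasts, the mean of the treated groups against unstimulated cells and the higher against the lower dose. All libraries came from splenic CD8+ T cells of wild-type C57BL/6J mice 6 to 8 weeks old. Anti-CD3 and anti-CD28 pre-activated the cells for 48 hours, and after a night of rest they spent 24 hours with a cytokine or, as unstimulated controls, without one. In experiment 1 each cytokine was given at doses of 100 pM and 1 nM, and in experiment 2, which had unstimulated controls of its own, at doses of 10 nM and 100 nM. This makes 5 groups per experiment with duplicate libraries in each (n = 2) and 20 libraries in all. No dose was used in both experiments, so their values are set side by side without a comparison. According to the study's methods, replicates came from separate tissue preparations or donors, and the labels do not tie single libraries to mice.

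IL-21 binds the IL-21 receptor and the common gamma chain, which signal through the kinases JAK1 and JAK3 to the transcription factor STAT3, and it is known in CD8+ T cells for promoting effector and cytotoxic programs. None of the 6 genes is a usual marker of these programs. Moxd1 encodes a copper-dependent monooxygenase of the endoplasmic reticulum related to dopamine beta-hydroxylase. Serpinb5 encodes maspin, an intracellular serpin of epithelial cells that does not inhibit proteases. Enpp2 encodes autotaxin, the secreted enzyme that makes the lipid mediator lysophosphatidic acid. Capn3 encodes a calcium-dependent cysteine protease best known from skeletal muscle. Fam19a3 (Tafa3) encodes a small secreted chemokine-like protein, and Crhbp the secreted protein that binds corticotropin-releasing hormone and urocortin.

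Reads on genes ranged from 36824740 to 94070730 per library in experiment 1 and from 27072917 to 43300094 in experiment 2. Levels are given as RPKM, the deposited reads scaled by transcript length and by the mapped reads of the library. The 7 defining genes of CD8+ T cells, among them Cd3e and Cd8a, summed to between 1136 and 1742 RPKM in every library, whereas the CD4 T cell genes Cd4, Foxp3 and Cd40lg summed to at most 1.55, the B cell genes to at most 10.5, nearly all of it Cd79b, the platelet genes to at most 3.46, and the natural killer and erythroid genes to at most 0.461 each. The 3 endothelial genes summed to 4.88 to 4.92 RPKM in unstimulated and 12.6 to 18.4 in treated libraries of experiment 1, and to 20.9 to 22.4 and 15.2 to 23.8 in experiment 2, nearly all of it Pecam1, with Cdh5 at most 0.0623 and Kdr at most 0.0663. Of the 5 myeloid genes, 4 were in the tables, and summed they were higher in every treated library. Their sum was 3.39 to 3.64 RPKM in unstimulated and 16.4 to 34.4 in treated libraries of experiment 1, and 4.63 to 4.81 against 12.3 to 22.7 in experiment 2. It was carried by Itgam and Cd68, while Lyz2 was at most 0.233 and Csf1r at most 0.0128 RPKM in any library. The mean of Lyz2 in experiment 2 was 0.158 RPKM in unstimulated cells and 0 in every treated group. The part of such cells in the results was not tested. In bulk RNA, fewer cells of a type and less RNA per cell cannot be told apart.

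The differences between the cytokines varied with dose. Within experiment 1, Moxd1, Serpinb5, Enpp2 and Capn3 had an absolute log2 fold change of 2 or more at both 100 pM and 1 nM. Within experiment 2, Fam19a3, Crhbp and, with a wide error, Capn3 did so at 100 nM. At 10 nM, none of the 6 genes had an absolute log2 fold change of 1 or more between the cytokines.

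**Figure D1:**
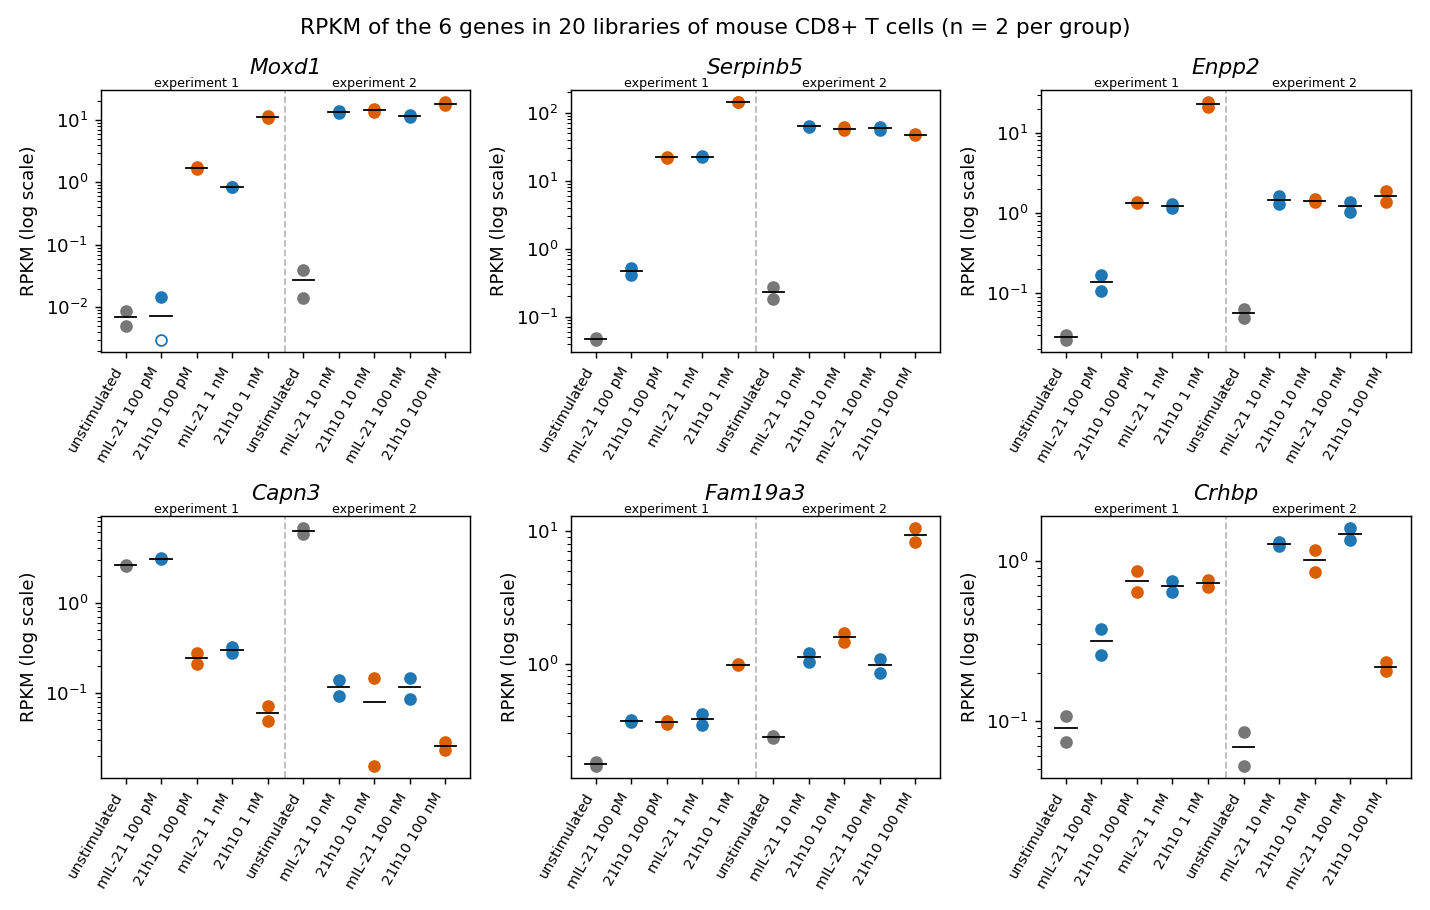
RPKM on a log scale (vertical axis) of each gene in each library of the 10 groups (horizontal axis), with unstimulated cells in gray, mIL-21 in blue and 21h10 in orange. Points are single libraries, black lines are group means, the dashed line parts the 2 experiments, and the open circle marks a library with 0 reads, drawn at the lower edge. Moxd1, Serpinb5 and Enpp2 climb over several orders of magnitude from unstimulated cells, Capn3 falls, and in experiment 2 Fam19a3 and Crhbp stand apart at 100 nM 21h10.

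Moxd1 (NM_021509, chromosome 10, 24223517 to 24302783, plus strand, GRCm38.p6) was almost unread in unstimulated cells. Its RPKM was 0.00878 and 0.00505 in the unstimulated libraries of experiment 1, which is 3 reads and 1 read. With 100 pM mIL-21 it was 0 and 0.0147, or 0 and 2 reads, whereas with 100 pM 21h10 it was 1.64 and 1.76. Cells given 100 pM mIL-21 thus could not be told from unstimulated cells at this depth, while both 21h10 libraries lay far above. At 1 nM, Moxd1 reached 0.853 and 0.834 RPKM with mIL-21 and 11.7 and 10.9 with 21h10. The pooled ratio of 21h10 to mIL-21 at 100 pM was 259, with a 95% exact counting interval from 71.5 to 2143 that covers counting error only and rests on 917 against 2 reads. At 1 nM it was 13.3, from 3749 against 264 reads. On the log2 scale the fitted difference was 7.97 (SE 0.30) at 100 pM, the highest of 13974 genes, and 3.79 (SE 0.10) at 1 nM. The value at 100 pM depends on the 2 reads of the second mIL-21 library. It was 6.88 without the first mIL-21 library, and without the second the group holds 0 reads and the fitted 11.49 depends on the prior count.

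In experiment 2 Moxd1 was high with either cytokine. It was 0.0399 and 0.0143 RPKM in unstimulated cells, 12.8 and 13.9 with 10 nM mIL-21, and 14.98 and 13.6 with 10 nM 21h10, so the duplicates of the 2 cytokines overlapped at 10 nM. At 100 nM it was 12 and 11.3 with mIL-21 and 19.1 and 17.4 with 21h10, without overlap, a log2 difference of 0.73 (SE 0.09). The order in this experiment ran from 100 nM 21h10 through 10 nM 21h10, 10 nM mIL-21 and 100 nM mIL-21 to unstimulated cells, and only the 2 groups at 10 nM overlapped.

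Serpinb5 (NM_009257, chromosome 1, 106861175 to 106883348, plus strand) had the highest RPKM of the 6 genes. Unstimulated cells of experiment 1 had 0.0457 and 0.0486 RPKM. With 100 pM cytokine it was 0.528 and 0.416 with mIL-21 but 21.7 and 22.4 with 21h10. With 1 nM it was 22.9 and 21.9 with mIL-21 and 141.1 and 141.8 with 21h10, where it ranked 410 among the 23992 symbols. The libraries with 100 pM 21h10 overlapped those with 1 nM mIL-21, and the log2 difference between these 2 groups was -0.04 (SE 0.05), although the dose of mIL-21 was higher. At equal dose 21h10 was 46.7-fold above mIL-21 in mean RPKM at 100 pM and 6.31-fold at 1 nM, log2 differences of 5.63 (SE 0.08) and 2.70 (SE 0.05).

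The pattern of Serpinb5 at the high doses was flat. Unstimulated cells of experiment 2 had 0.184 and 0.275 RPKM. It was 64.1 and 61.7 with 10 nM mIL-21, 60.8 and 55.8 with 10 nM 21h10, 61.8 and 55.5 with 100 nM mIL-21, and 47.8 and 46.4 with 100 nM 21h10. Of the treated groups only 100 nM 21h10 lay clear of the next in order, below it, and its log2 difference to 100 nM mIL-21 was -0.24 (SE 0.09). The mean of 141.4 RPKM with 1 nM 21h10 in experiment 1 had no counterpart in experiment 2, where the mean was 47.1 to 62.9 RPKM at doses from 10 nM, but the experiment and the dose cannot be told apart.

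Moxd1 and Serpinb5 followed each other most closely among the 6 genes, so the bases before their start sites are shown, 250 bases each from RefSeq on GRCm38.p6, 5′ to 3′ on the plus strand. They were searched for TTCNNNGAA, a palindrome that reads the same on both strands and is known as a site of STAT factors. Its match is in capitals.
Moxd1, chr10:24223267-24223516: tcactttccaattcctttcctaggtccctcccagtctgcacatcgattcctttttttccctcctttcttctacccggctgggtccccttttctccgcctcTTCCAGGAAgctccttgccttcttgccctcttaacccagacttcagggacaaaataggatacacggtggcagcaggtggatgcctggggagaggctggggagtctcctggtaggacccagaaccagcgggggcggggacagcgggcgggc
Serpinb5, chr1:106860925-106861174: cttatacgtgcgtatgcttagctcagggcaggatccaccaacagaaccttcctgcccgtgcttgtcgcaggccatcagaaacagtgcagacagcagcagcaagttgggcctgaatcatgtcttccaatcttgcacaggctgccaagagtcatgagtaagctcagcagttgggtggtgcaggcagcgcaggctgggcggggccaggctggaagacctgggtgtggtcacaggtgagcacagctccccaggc
The match in Moxd1 begins 150 bases before the start, and the 250 bases before Serpinb5 hold none. Of the 6 genes, 5 had an entry among the RefSeq promoters of 300 bases (250 before and 50 after a start), which made 6 entries, as Capn3 had 2. Of these 6 entries 2 held the motif, that of Moxd1 and, 8 bases after a start, that of Fam19a3. The start of the Fam19a3 entry lies inside the span of the gene, not at its outer end. Of all 32851 promoter entries 8.30% held it, and 7.02% held it in the 250 bases before the start. A match is a description of these letters, not of binding, and its absence says nothing about a factor.

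Enpp2 (NM_001136077, chromosome 15, 54838901 to 54952789, minus strand) was the gene with the steepest step between the doses of 21h10 in experiment 1. It was 0.0299 and 0.0258 RPKM in unstimulated cells, 0.169 and 0.107 with 100 pM mIL-21 and 1.33 and 1.36 with 100 pM 21h10. With 1 nM mIL-21 it was 1.29 and 1.15, near the level of 100 pM 21h10, and the log2 difference of those 2 groups was 0.13 (SE 0.11). With 1 nM 21h10 it was 21.0 and 24.0 RPKM, 18.5-fold above mIL-21 at that dose and 16.8-fold above 100 pM 21h10 in mean RPKM. The log2 differences between the cytokines were 3.35 (SE 0.18) at 100 pM and 4.26 (SE 0.10) at 1 nM.

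At 10 nM and 100 nM, the levels of Enpp2 with the 2 cytokines overlapped. They were 1.31 and 1.61 RPKM with 10 nM mIL-21, 1.49 and 1.36 with 10 nM 21h10, 1.03 and 1.37 with 100 nM mIL-21 and 1.85 and 1.37 with 100 nM 21h10, against 0.0623 and 0.0487 in unstimulated cells. All 8 treated libraries of experiment 2 thus lay below the 2 libraries of 1 nM 21h10 in experiment 1, but the experiment and the dose cannot be told apart. The summed stromal genes (Col1a1, Col1a2, Col3a1 and Pdgfrb) were 0.0933 to 0.124 RPKM in unstimulated libraries of experiment 1, 0.390 to 0.462 in those 2 libraries and up to 0.706 in other treated ones. The summed dendritic cell genes were highest in them, 1.66 to 1.70 RPKM against 0.273 to 1.07 in all other libraries, with Zbtb46 at a mean of 1.20 and Flt3 at 0.370, while Xcr1 and Siglech were at 0.0938 and 0.0145. Their part in the result was not tested. The deposited tables list 4 transcripts of Enpp2 that share most reads, and 5.97% of its exonic bases in GENCODE overlap Gm26684 on the other strand.

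Capn3 (NM_007601, chromosome 2, 120463593 to 120504919, plus strand) ran the other way. It was 2.62 and 2.58 RPKM in unstimulated cells of experiment 1 and 3.11 and 3.06 with 100 pM mIL-21, but 0.211 and 0.275 with 100 pM 21h10. It was 0.320 and 0.280 with 1 nM mIL-21 and 0.0715 and 0.0492 with 1 nM 21h10, the latter from 10 reads in each library. Only with 100 pM mIL-21 was Capn3 near the level of unstimulated cells. It lay slightly above them without overlap, a log2 difference of 0.16 (SE 0.09). Mean RPKM with mIL-21 was 12.7-fold that with 21h10 at 100 pM and 4.97-fold at 1 nM, log2 differences of -3.53 (SE 0.13), the 4th lowest of all genes fitted, and -2.30 (SE 0.29).

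In experiment 2 Capn3 was 6.72 and 5.77 RPKM without cytokine and at most 0.146 in any treated library. It was 0.139 and 0.0932 with 10 nM mIL-21, 0.146 and 0.0856 with 100 nM mIL-21, 0.0157 and 0.145 with 10 nM 21h10 and 0.0288 and 0.0232 with 100 nM 21h10. The duplicates at 10 nM 21h10 disagreed, with 2 and 21 reads, so that the log2 difference between the cytokines at that dose, -0.36 (SE 0.55), was 0.44 without the first and -2.74 without the second of them. At 100 nM it was -2.05 (SE 0.74), a pooled ratio of 0.223 with a 95% exact counting interval from 0.0836 to 0.512, from 7 against 34 reads. On the log2(RPKM + 1) scale, which understates changes of low genes, the differences were -0.29 at 1 nM and -0.12 at 100 nM. GENCODE models of Capn3 share 7.69% of their exonic bases with Ganc on the same strand, but the RefSeq spans of the 2 genes do not overlap.

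Fam19a3 (NM_183224, chromosome 3, 104767405 to 104779542, minus strand) was low in experiment 1. It was 0.180 and 0.170 RPKM in unstimulated cells, and the 3 groups with 100 pM of either cytokine or 1 nM mIL-21 lay between 0.344 and 0.419 and overlapped. With 1 nM 21h10 it was 0.986 and 0.978, a log2 difference of 1.42 (SE 0.15) to mIL-21, beside 0.07 (SE 0.16) at 100 pM. In experiment 2 it was 0.275 and 0.286 RPKM without cytokine, 1.20 and 1.03 with 10 nM mIL-21 and 1.46 and 1.71 with 10 nM 21h10. At 100 nM it was 1.09 and 0.847 with mIL-21 but 10.5 and 8.19 with 21h10, which was 9.66-fold higher in mean RPKM, a log2 difference of 3.35 (SE 0.16). Among all libraries only the 2 with 100 nM 21h10 exceeded 2 RPKM. In GENCODE, Gm43584 on the same strand covers 6.13% of the exonic bases of Fam19a3, so part of its reads could belong to that gene.

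Crhbp (NM_198408, chromosome 13, 95431376 to 95444831, minus strand) was lower with 21h10 than with mIL-21 at the highest dose. In experiment 1 it was 0.107 and 0.0741 RPKM in unstimulated cells, 0.375 and 0.257 with 100 pM mIL-21, and between 0.636 and 0.862 in the other 3 treated groups, which overlapped one another. The log2 difference between the cytokines was 1.35 (SE 0.25) at 100 pM and 0.11 (SE 0.23) at 1 nM. In experiment 2 it was 0.0853 and 0.0524 without cytokine, 1.23 and 1.31 with 10 nM mIL-21, and 1.17 and 0.846 with 10 nM 21h10. At 100 nM it was 1.34 and 1.60 with mIL-21 and only 0.204 and 0.233 with 21h10, 6.73-fold lower, a log2 difference of -2.67 (SE 0.34) from 31 against 226 reads. Even there, both libraries lay above the unstimulated ones. No 2 neighboring groups overlapped in the order of Crhbp in experiment 2.

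**Figure D2:**
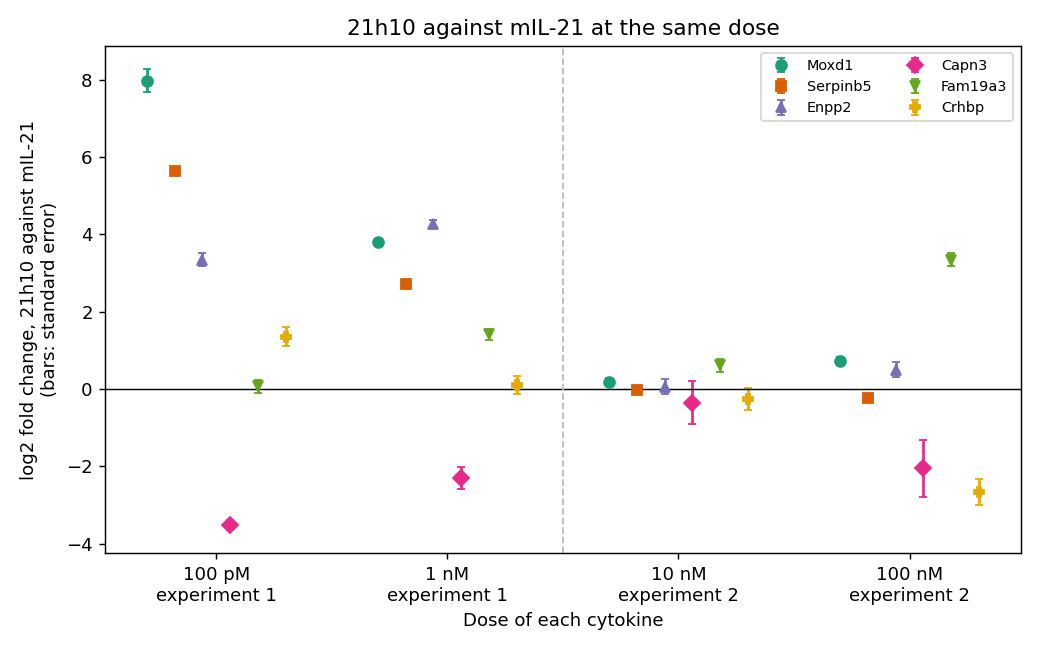
The log2 difference between 21h10 and mIL-21 (vertical axis) at each dose (horizontal axis) for each gene, with bars for the standard error of the edgeR fit (n = 2 libraries per group) and a dashed line between the experiments. The values run from 7.97 for Moxd1 to -3.53 for Capn3 at 100 pM, lie within 1 of zero for all 6 genes at 10 nM, and at 100 nM reach 3.35 for Fam19a3 and -2.67 for Crhbp.

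Whether the genes responded to cytokine at all was asked with the mean of the 4 treated groups against unstimulated cells, in a fit of the whole table. Moxd1, Serpinb5, Enpp2, Fam19a3 and Crhbp rose and Capn3 fell in both experiments. Across all genes, 41.3% rose and 43.0% fell in experiment 1, and 27.5% rose and 30.1% fell in experiment 2, so a call was common. Only 2 of the 6 genes in experiment 1 and 3 in experiment 2 reached the level of the count filter in both unstimulated libraries. The others were tested because treated cells expressed them, so the number of calls among the 6 carries no weight. The libraries whose differences chose the genes are also part of the treated mean. The ranks and p-values of this test are therefore descriptions and no independent support.

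Serpinb5 had the largest response of the 13974 genes in experiment 1, a log2 fold change of 8.16 (SE 0.13, edgeR adjusted p = 4.54e-19), and 8.19 (SE 0.14, adjusted p = 8.69e-16) in experiment 2. Moxd1 rose by 9.20 on the log2 scale in experiment 2 (SE 0.18, edgeR adjusted p = 1.85e-15), the second largest value of 13772 genes. In experiment 1 it rose by 6.20 (SE 0.79, edgeR adjusted p = 8.55e-07). That value includes the group with 100 pM mIL-21, and without its second library the group holds 0 reads and the test is void (log2 fold change 5.33, adjusted p = 1). Enpp2 rose by 5.72 (SE 0.22, edgeR adjusted p = 5.38e-14) and 4.89 (SE 0.27, adjusted p = 3.19e-10).

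Capn3 fell by 2.92 on the log2 scale in experiment 1 (SE 0.09, edgeR adjusted p = 2.88e-15) and fell by 6.14 in experiment 2 (SE 0.23, adjusted p = 2.92e-12). Crhbp rose by 2.63 (SE 0.26) and 3.74 (SE 0.37), with edgeR adjusted p = 2.78e-08 and 3.51e-07. Fam19a3 had the smallest rise, 1.44 (SE 0.14) in experiment 1 and 3.08 (SE 0.17) in experiment 2, with edgeR adjusted p = 1.82e-08 and 3.3e-10. Ganc, which shares exonic bases with Capn3, had log2 fold changes of 0.90 (SE 0.06) and -0.49 (SE 0.08) with edgeR adjusted p = 7.32e-11 and 6.19e-05, so its direction differed from that of Capn3 in experiment 1.

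The second test set the higher dose against the lower, averaged over both cytokines. The libraries whose differences chose the genes enter it too, so it is no independent support. From 100 pM to 1 nM, 5 of the 6 genes rose and Capn3 fell, where 23.3% of all genes rose and 23.4% fell. Moxd1 rose by 4.88 on the log2 scale (SE 0.16, edgeR adjusted p = 9.82e-14), Serpinb5 by 4.20 (SE 0.05, adjusted p = 1.03e-19) and Enpp2 by 3.68 (SE 0.10, adjusted p = 1.05e-14). Capn3 fell by 2.63 (SE 0.15, edgeR adjusted p = 1.12e-10). Fam19a3 rose by 0.83 (SE 0.11, edgeR adjusted p = 7.17e-06), of which the step was 0.16 (SE 0.17) with mIL-21 and 1.51 (SE 0.14) with 21h10. Crhbp rose by 0.59 (SE 0.17, edgeR adjusted p = 0.00931), with 1.21 (SE 0.27) for mIL-21 and -0.03 (SE 0.21) for 21h10, and it lost the call without the second 100 pM mIL-21 library (0.48, adjusted p = 0.0524).

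From 10 nM to 100 nM, 0.922% of all genes rose and 2.36% fell. Fam19a3 and Crhbp passed this test, but the libraries with 100 nM 21h10 that chose both genes also make their dose step, so nothing is read from that count or from the p-values beyond a description. Fam19a3 rose by 1.22 on the log2 scale (SE 0.11, edgeR adjusted p = 2.89e-05), with a step of -0.15 (SE 0.17) for mIL-21 and 2.58 (SE 0.16) for 21h10. Crhbp fell by 0.96 (SE 0.22, edgeR adjusted p = 0.0261), with steps of 0.25 (SE 0.27) and -2.16 (SE 0.34). The call for Crhbp was not firm. It was lost with limma on log2(RPKM + 1) (-0.30, adjusted p = 0.11) and when any of 7 of the 8 treated libraries was left out (-0.85 to -1.04, adjusted p = 0.0518 to 0.116), the exception being the second library of 10 nM 21h10.

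The other 4 genes did not pass this test. The log2 fold change was 0.11 for Moxd1 (SE 0.07, edgeR adjusted p = 0.4), -0.17 for Serpinb5 (SE 0.06, adjusted p = 0.181), -0.01 for Enpp2 (SE 0.14, adjusted p = 0.976) and -0.78 for Capn3 (SE 0.48, adjusted p = 0.42). Serpinb5 passed it when either unstimulated library was left out (-0.17 in both, adjusted p = 0.0469 and 0.0472). For Moxd1, Serpinb5 and Enpp2, a step of 3 or more log2 units in experiment 1 stood beside one within 0.2 of zero in experiment 2. These are different doses in different experiments.

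**Figure D3:**
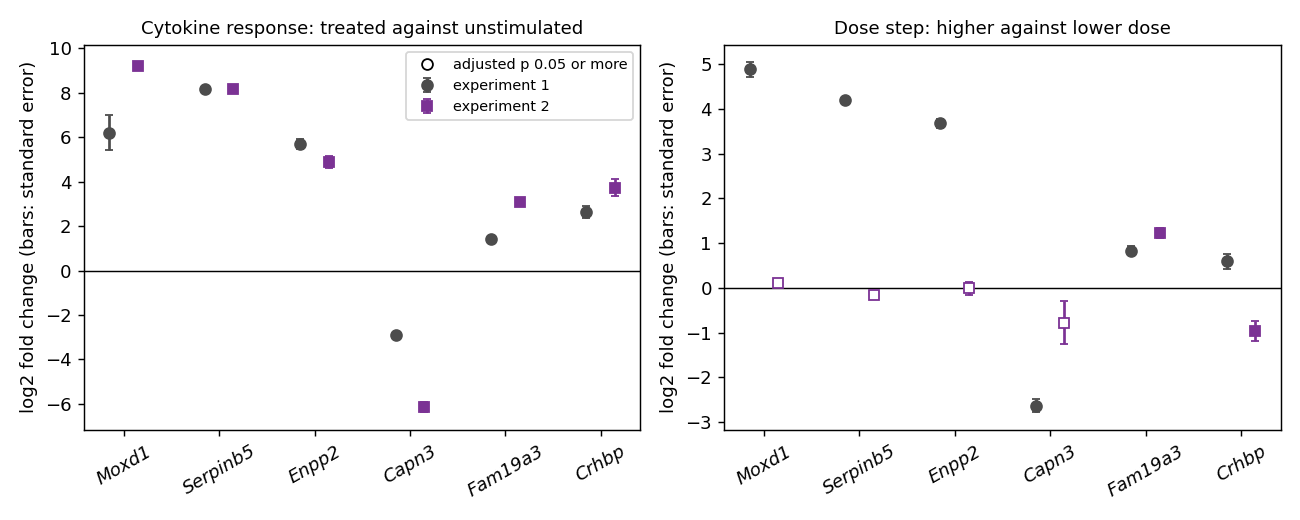
Log2 fold changes (vertical axis) of the 6 genes for treated against unstimulated cells (left) and for the higher against the lower dose averaged over both cytokines (right), with circles for experiment 1, squares for experiment 2 and bars for the standard error of the edgeR fit. Filled symbols passed an adjusted p of 0.05, and in the dose step of experiment 2 only Fam19a3 at 1.22 and Crhbp at -0.96 are filled.

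Across the 20 libraries, with log2 CPM centered within each experiment, 10 of the 15 pairs of genes correlated positively and the 5 pairs with Capn3 negatively. These libraries share their treatments, so the values are descriptions. Pearson's r was 0.97 for Moxd1 with Serpinb5, 0.96 for Serpinb5 with Enpp2, -0.96 for Moxd1 with Capn3, and lowest in size, 0.32, for Fam19a3 with Crhbp. Among 10517 genes with a mean RPKM of at least 1, the 3 most like Serpinb5 were Rab27a, a GTPase of cytotoxic granule release, Acadl, a fatty acid oxidation enzyme, and Cyb5, cytochrome b5, with r from 0.990 to 0.995. They were far more highly expressed without cytokine, Acadl at 53.5 RPKM in unstimulated cells and 323 with 1 nM 21h10 in experiment 1. Moxd1 was most like Rrbp1, Gcnt1 and a (agouti), with r of 0.977 to 0.980. Gcnt1, which builds branched O-glycans, went from 0.271 RPKM in unstimulated cells to 14.0 with 1 nM 21h10.

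Enpp2 was most like Tgm2, Por and Il13ra1, with r from 0.986 to 0.991. Il13ra1, a chain of the IL-13 receptor, shared its peak at 1 nM 21h10, with a mean of 10.4 RPKM there, 0.839 with 1 nM mIL-21 and 0.489 to 0.590 in the 4 treated groups of experiment 2. Tgm2, transglutaminase 2, likewise was at 17.4 RPKM with 1 nM 21h10 and at 2.80 to 3.29 in treated groups of experiment 2. For these genes too, the experiment and the dose cannot be told apart. Capn3 was most like Ppic, Hemgn and the chemokine gene Xcl1, with r of 0.968 to 0.970, and Xcl1 was at 31.0 RPKM in unstimulated cells and 0.773 with 1 nM 21h10.

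Fam19a3 was most like Il24, Dapp1 and Hipk2, with r from 0.915 to 0.935, the lowest of the 6 genes. Il24, a cytokine of the IL-10 family, was at 9.24 RPKM with 100 nM 21h10 and at 0.551 to 1.01 in the other treated groups of experiment 2, but unlike Fam19a3 it reached 23.2 RPKM with 1 nM 21h10. Crhbp was most like Gramd4, F2rl1 and Hs3st3b1, with r from 0.971 to 0.978. F2rl1, a protease-activated receptor, was at 37.4 RPKM with 100 nM mIL-21 and 17.1 with 100 nM 21h10, against 6.61 without cytokine.

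Relatives of the 6 genes, and genes listed with them, were counted in the same fits. Of the 26 other clade B serpins listed, 9 were tested in experiment 1 and 10 in experiment 2. In the cytokine response 6 rose and 2 fell in experiment 1, and 6 rose and 3 fell in experiment 2, where 41.3% and 27.5% of all genes rose and 43.0% and 30.1% fell, with median log2 fold changes of 0.98 and 1.30 beside -0.01 over all genes in both. Serpinb1a, an inhibitor of neutrophil-type serine proteases, rose by 6.17 (SE 0.11, edgeR adjusted p = 2.93e-18) and 6.67 (SE 0.12, adjusted p = 8.69e-16). Its mean was 0.175 RPKM without cytokine, 2.37 with 100 pM mIL-21, 14.0 with 100 pM 21h10, 19.98 with 1 nM mIL-21 and 45.3 with 1 nM 21h10. Serpinb1a alone of the 10 tested in this list passed the dose step of experiment 2, where 0.922% of all genes rose and 2.36% fell. Its value was -0.45 (SE 0.06, edgeR adjusted p = 0.000525), and in the dose step of experiment 1 it rose by 2.47 (SE 0.05, adjusted p = 1.21e-15).

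Serpinb1b rose by 2.35 and 1.66 and Serpinb1c by 3.81 and 4.30 on the log2 scale. Serpinb9b fell by 1.21 in experiment 1 and by 0.80 in experiment 2, and Serpinb8 passed in experiment 2 alone (1.97, SE 0.67). The 3 most highly expressed, Serpinb6b, Serpinb6a and the granzyme B inhibitor Serpinb9, had smaller values, and each passed in both experiments with opposite signs, Serpinb6b for example with 0.98 (SE 0.05) and -0.31 (SE 0.06). Serpinb6c passed in experiment 1 alone, with 1.04 (SE 0.09). Between 0.38% and 9.92% of the 50-base words in transcripts of the tested Serpinb1, Serpinb6 and Serpinb9 genes named here occur in other genes, so part of their reads is uncertain, and for Serpinb9f, which passed in experiment 2 with 1.77 (SE 0.72), the share was 78.7%. Serpinb5 shares no such word.

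The calpains and their partners gave no common direction with Capn3. Of 15 others listed, 10 were tested, and 7 rose and 3 fell in experiment 1, while 4 rose and 2 fell in experiment 2, beside 41.3% and 43.0% of all genes in experiment 1 and 27.5% and 30.1% in experiment 2. Capn1, Capns1 and Cast, the large and small subunits of calpain and its inhibitor calpastatin, were the most highly expressed, and rose by 0.63, 0.83 and 0.70 in experiment 1 and by 0.53, 0.53 and 0.23 in experiment 2. Capn2 rose by 0.55 and 1.22. Capn5 rose by 3.34 (SE 0.07, edgeR adjusted p = 3.42e-17) in experiment 1 and fell by 1.39 (SE 0.17, adjusted p = 5.43e-06) in experiment 2, and Capn12, at a mean of 0.0493 RPKM, passed in experiment 1 alone (2.31, SE 0.58). In the dose step of experiment 1, 4 rose and 2 fell, where 23.3% of all genes rose and 23.4% fell. In the dose step of experiment 2, 0 of the 10 passed with edgeR, DESeq2 or limma. With edgeR only 0.922% of all genes rose there and 2.36% fell, so 0 of 10 says little about the calpains. Capn1, Capn10 and Capn15 had an unadjusted p under 0.05 with each tool, and the share of all genes with such a p was not counted. The table tested with limma held 8 of the 10.

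Of 18 other genes of autotaxin and lysophosphatidic acid, 14 were tested. In experiment 1, 5 rose and 5 fell, and in experiment 2, 1 rose and 6 fell. Over all genes, 41.3% rose and 43.0% fell in experiment 1 and 27.5% and 30.1% in experiment 2. Lpar5 and Lpar6, receptors of lysophosphatidic acid, were at means of 4.97 and 3.14 RPKM. Lpar6 fell by 0.53 (SE 0.08, edgeR adjusted p = 4.94e-06) and 0.50 (SE 0.09, adjusted p = 0.000257) in the response and by 1.25 (SE 0.08, adjusted p = 1e-09) from 100 pM to 1 nM, while Lpar5 did not pass the response test in either experiment (0.08, SE 0.07, and -0.09, SE 0.13). Ppap2c, a phosphatase that breaks down lysophosphatidic acid, rose by 2.01 (SE 0.10) in experiment 1 and fell by 1.32 (SE 0.22) in experiment 2, and Ppap2a fell by 0.67 (SE 0.13) and 1.87 (SE 0.29). Enpp1 rose by 1.44 (SE 0.06) in experiment 1 and had 0.23 (SE 0.11, edgeR adjusted p = 0.0997) in experiment 2. Pla1a, a phospholipase, fell by 0.86 and 1.39. Enpp5 rose by 2.02 and then fell by 0.83, and Enpp4 fell by 1.05 and then rose by 0.32. Enpp6, Lpar4 and Liph, each with a mean over all libraries under 0.1 RPKM, passed in experiment 1 alone with 1.12, 1.59 and -1.57.

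The remaining 3 lists held few expressed genes. Of 4 other genes listed with Moxd1, Pam, the peptide-amidating monooxygenase, rose by 0.49 (SE 0.11) in experiment 1 and fell by 0.91 (SE 0.18) in experiment 2. Dbhos, whose symbol stands for the strand opposite the dopamine beta-hydroxylase gene, is no such enzyme. It was at 0.246 RPKM, fell by 1.44 in experiment 1 (SE 0.14) and did not pass in experiment 2. Moxd2 averaged 0.0229 RPKM and was not tested. Of 4 relatives of Fam19a3, Fam19a2, at a mean of 0.0703 RPKM, was tested and rose by 1.39 (SE 0.52, edgeR adjusted p = 0.0195) and 2.10 (SE 0.62, adjusted p = 0.0084), Fam19a1 averaged 0.0139 RPKM and Fam19a4 had 0 reads in every library. None of the 6 other genes of the corticotropin-releasing hormone system passed the count filter, the receptor genes Crhr1 and Crhr2 averaging 0.00849 and 0.000585 RPKM and the ligand gene Ucn2 0.017 RPKM.

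**Figure D4:**
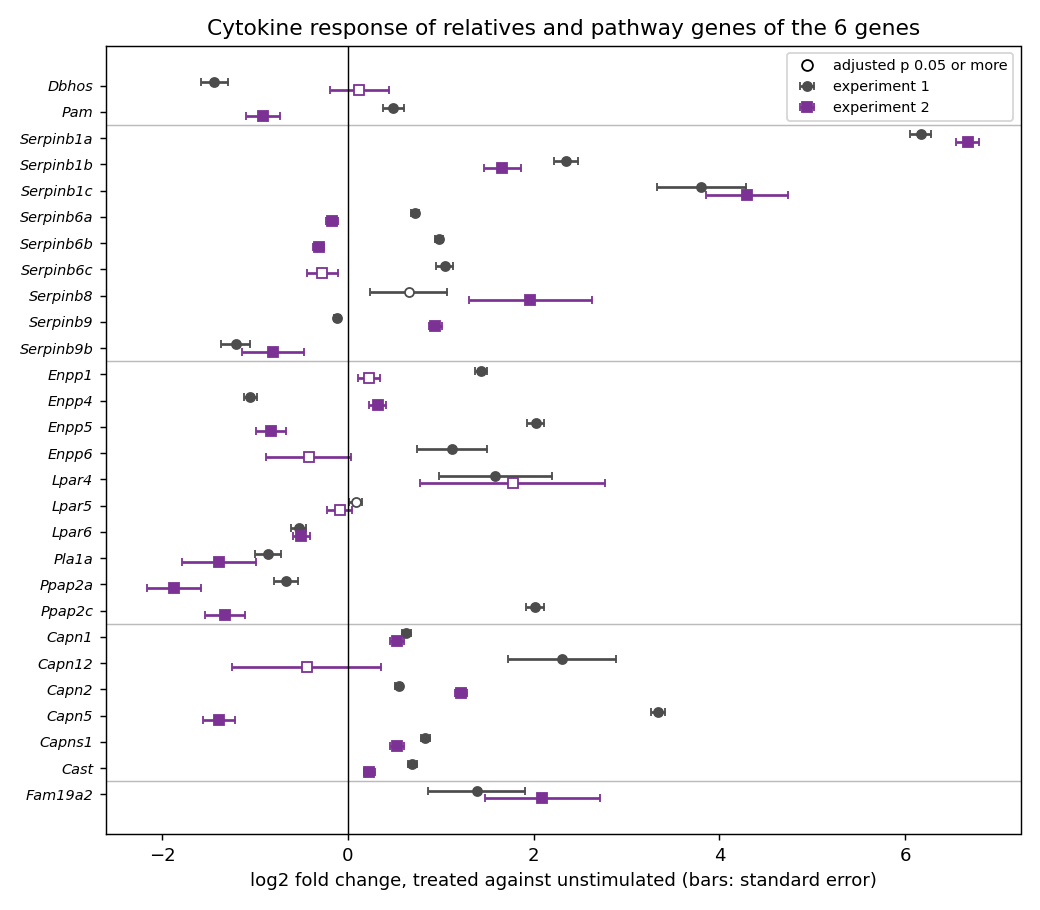
Log2 fold change of treated against unstimulated cells (horizontal axis) for the named genes of the lists that were tested in both experiments (vertical axis, by list). Circles stand for experiment 1, squares for experiment 2, bars for the standard error of the edgeR fit and open symbols for an adjusted p of 0.05 or more. Serpinb1a lies furthest to the right at 6.17 and 6.67, while Capn5 and Ppap2c lie on opposite sides of zero in the 2 experiments.

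Of the 12 nearest listed genes beside the 6 on their chromosomes, 8 were tested. In the response, 3 rose and 4 fell in experiment 1, and 5 rose and 2 fell in experiment 2. With 41.3% of all genes rising and 43.0% falling in experiment 1, and 27.5% and 30.1% in experiment 2, calls were common everywhere. Stx7, 34555 bases before Moxd1, rose by 1.48 (SE 0.05, edgeR adjusted p = 2.26e-14) and 1.91 (SE 0.08, adjusted p = 1e-11), and Ppm1j, 1409 bases from Fam19a3, by 2.51 (SE 0.05, adjusted p = 1.51e-17) and 1.29 (SE 0.12, adjusted p = 1.2e-07). Beside Serpinb5, Vps4b had 0.02 (SE 0.04, adjusted p = 0.691) in experiment 1 and rose by 0.67 (SE 0.07, adjusted p = 4.67e-07) in experiment 2, and Serpinb12 had 0 RPKM in every library. Near Enpp2, Taf2 fell by 0.80 (SE 0.04) and rose by 0.19 (SE 0.06), and beside Crhbp, Aggf1 fell by 0.72 (SE 0.03) and rose by 0.42 (SE 0.07). Beside Capn3, Zfp106 fell by 0.71 (SE 0.04) and 0.48 (SE 0.06), while the noncoding 4931402G19Rik, whose span overlaps that of Capn3, rose by 1.35 (SE 0.41) in experiment 1 and had 0.68 (SE 0.45, adjusted p = 0.201) in experiment 2. Slc16a1, on the other side of Fam19a3 from Ppm1j, fell by 1.01 (SE 0.03) and 0.18 (SE 0.06).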

How the data were processed

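RNA-seq was analyzed from 20 libraries of murine CD8+ T cells in 2 experiments. According to the methods and the labels, the authors mapped reads to mm10 (GRCm38) with TopHat2 2.0.11 and counted those on exons. The deposited counts are raw whole numbers per RefSeq transcript, and from them, the transcript lengths and the mapped reads the authors made the RPKM values beside them. The submitters' processing notes also name Bowtie2 2.2.6, SAMtools 0.1.8, bedtools 2.25.0 and edgeR, with no role for each. Which tool counted the reads, the annotation release and the use of strand are not given in the sources used here, so reads of genes that overlap on either strand cannot be told apart.

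The longest transcript stood for each of 23992 symbols. In the labels WT stands for mIL-21 and h10 for 21h10, as read from the treatment protocol. Counts of each experiment (10 libraries) were filtered with edgeR 4.0.16 filterByExpr (least count 10, least total 15), scaled by TMM and fitted with glmQLFit with group as the factor. glmQLFTest tested the cytokine response and the dose step, with Benjamini-Hochberg adjustment over the 13974 or 13772 genes fitted and a threshold of 0.05. Differences between the cytokines at one dose chose the genes and are given without a test. Alternatives were DESeq2 1.42.0, no filter, limma 3.58.1 on log2(RPKM + 1), the most-read transcript, library sizes without TMM, a ratio of mean CPM with no prior count, a replicate block and each library left out. Computations used R 4.3.3 and Python 3.11.15, and the fit was tested on simulated data.

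The 6 genes, the lists and the tests were chosen with earlier results of these data known. Other genes are named by rule. They are the 3 genes with the highest Pearson r to each member and the nearest listed gene on each side. From each list they are the 3 most highly expressed genes and any past a test with an absolute log2 fold change of at least 1. The chi-square of duplicate counts averaged 2.66 to 35.5 per gene, so duplicates differed by more than sampling noise. According to the methods, replicates came from separate tissue preparations or donors. The labels do not say which libraries share one, and p-values measure the spread between these duplicates.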

Additional observations from a re-analysis of the deposited data

Results flagged for a closer look

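In 2 of the 6 genes, both libraries at 100 nM lay above both at 10 nM with 1 cytokine and below both with the other. The share of all genes with this pattern was not counted, so the number of genes that show it carries no weight. The differences that chose the genes enter it, so it is a description only. The difference between the 2 dose steps was not tested in either gene. For Crhbp, the dose step with 21h10 minus that with mIL-21 was -2.41 on the log2 scale. The steps were -2.16 (SE 0.34) with 21h10 and 0.25 (SE 0.27) with mIL-21. For Moxd1 the same difference was 0.54, from steps of 0.38 (SE 0.09) with 21h10 and -0.16 (SE 0.09) with mIL-21. With 2 libraries in a group, no check of single libraries against the rest of their group was made.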

How the results depend on the processing

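The dose step of experiment 2, with 127 rises and 325 falls, depended most on the processing. DESeq2 gave 243 rises, no filter on low counts 334 rises and 552 falls, and limma on log2(RPKM + 1) 44 rises and 148 falls. With 1 library left out, rises ranged from 44 to 343 and falls from 99 to 631. Leaving out either unstimulated library gave the highest counts, and leaving out any treated library other than the first with 10 nM mIL-21 cut both counts by over 1.5 times. In the dose step of experiment 1, with 3259 rises and 3273 falls, library sizes without TMM gave 4910 falls and a share of rises among calls of 32.1% instead of 49.9%, and limma gave 1755 rises and a share of 28.0%. In the response of experiment 2 limma gave 1766 rises and a share of 24.2% instead of 47.7%. The cause of these shifts was not tested. The limma table did not hold Fam19a3 and Crhbp in experiment 1. All other counts stayed within 1.5 times the reported ones. The number of differences between the cytokines with an absolute log2 fold change of at least 1, 13 of 24, was not counted with a library left out. It too stayed within 1.5 times under the alternatives that gave all 24 differences. Limma on log2(RPKM + 1), which gave fewer, lowered the differences by construction, at 100 pM to 1.42 for Moxd1, 3.97 for Serpinb5, 1.04 for Enpp2 and -1.72 for Capn3, at 1 nM to 2.74 for Moxd1 and 3.40 for Enpp2, and at 100 nM to 2.39 for Fam19a3 and -1.02 for Crhbp. The duplicate numbers of the labels are not stated to mark a batch or day, and the deviations of same-numbered libraries correlated at -0.0617 to 0.0293 in experiment 1 and -0.167 to 0.227 in experiment 2, so they were not taken to pair the libraries. A fit with the replicate block gave 5754 rises and 5968 falls in the response of experiment 1 and 364 falls in the dose step of experiment 2, and changed no call of the 6 genes. Among the tests of the 6 genes, 1 value under the other settings and 11 with a library left out crossed the threshold, all given with the results, and none turned its direction.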
